A study of Mus musculus with 8 samples.

Results

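The first 72 h of reprogramming were measured in control cells, N31 cells expressing EGFP, on 4 of the 8 arrays of the series. The arrays were taken by their sample names: 2 of neural progenitor cells (NPC) before reprogramming and 2 of cells 72 h into it. N31 is a neural progenitor line made from mouse embryonic stem cells, and EGFP, a green fluorescent protein, was carried by the cells of all 4 arrays. The other 4 arrays hold the same stages of N31 cells expressing W20, whose effect the study set out to measure. NPC were grown on gelatin in RHB basal medium with EGF and bFGF, each at 10 ng/ml. Cells of the 72 h group received Dox at 40 ng/ml throughout, while the NPC medium was replaced after 48 h, for the last 24 h, by GMEM with 10% KSR. The second medium also held LIF at 1000 U/ml, ACTH at 1 µM, sodium pyruvate at 1 mM, nonessential amino acids and 2-mercaptoethanol at 100 µM. The wording of the labels does not settle whether EGF and bFGF stayed in that medium. The labels also do not say what Dox switches on, whether the line is a clone, or whether replicates came from separate cultures. P-values therefore rest on a spread between arrays that may be no more than technical.

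Reprogramming turns a committed cell into one that resembles an embryonic stem cell, usually by forced expression of Oct4 (Pou5f1), Sox2, Klf4 and Myc. Neural progenitors divide in response to EGF and FGF, which act through the kinase ERK and switch on inhibitors of their own pathway, such as the Sprouty proteins and the phosphatase Dusp6. Their usual fates are neurons, astrocytes and oligodendrocytes, and Notch signalling between neighbouring cells helps to keep them undifferentiated. LIF keeps mouse embryonic stem cells pluripotent by way of its receptor and the transcription factor STAT3.

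All NPC arrays of the series lay on slide 1 and all 72 h arrays on slide 2, so stage and slide cannot be told apart in any value given here. Levels are log2 signals relative to the 75th percentile of the same array, which was 882.0 and 871.3 intensity units in NPC and 938.0 and 900.9 at 72 h. Of the spots, 61.1% to 62.4% were well above background, and none was saturated. The 8 spike-in control RNAs differed between the stages by -0.09 to 0.06 on the log2 scale, with a median of -0.03. Across the 12157 genes well above background on all 8 arrays, the replicates of each stage correlated at 0.999 and the means of the stages at 0.968 (correlations across genes, which are not replicates). The median SD between the replicates of a gene was 0.035 in NPC and 0.034 at 72 h. The arrays measure mixed cell populations, so a lower level may mean fewer cells of a type or less RNA per cell, and these cannot be told apart.

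The NPC arrays carried 8 of 10 neural progenitor markers above background, with Olig2 below background at both stages and Fabp7 above it on both arrays only at 72 h. They also carried 7 of 7 fibroblast markers, of which 6 stayed above background at 72 h. Of the pluripotent-cell markers, 4 of the 6 with a named probe were above background at both stages (Dppa5a, Esrrb, Utf1 and Zfp42), and Pou5f1, which defines the pluripotent state, was not. Neuronal markers went from 3 to 4 of 6, astrocyte markers from 3 to 2 of 5, and oligodendrocyte markers from 2 to 3 of 4. The neuronal and oligodendrocyte markers gained were Rbfox3 (change 0.14) and Sox10 (0.16). Both lay near background, were above it on 1 NPC array already, and had changes that did not pass. No immune marker of 3 was above background. Endothelial markers went from 0 to 2 of 4, with Kdr and Tek above background at 72 h and Cdh5 and Pecam1 at neither stage. The summed linear level of the fibroblast list, in units of the 75th percentile, was 168 and 191 in NPC and 142 and 146 at 72 h. The brightest fibroblast marker, the collagen Col1a2, read 6.95 and 7.14 in NPC and 6.88 and 6.92 at 72 h. Its change of -0.15 did not pass. The part of such cells in the changes below was not tested.

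Most measured genes changed over the 72 h, the majority by little. Of 13615 genes tested, 9523 (69.9%) passed the threshold of the limma fit (Benjamini-Hochberg adjusted p under 0.05, two-sided). Of these, 4911 (36.1% of all tested) rose and 4612 (33.9%) fell, and the median size of a called change was 0.45 on the log2 scale. Changes of at least 2-fold were called for 911 genes upward (6.69%) and 899 downward (6.6%), and those of at least 4-fold for 379 and 164. Among the 12157 genes well above background on all 8 arrays, 564 and 615 passed 2-fold. The other genes were dim on some array. With normexp background correction, which lifts dim signals by an offset of 50, 472 and 450 genes passed 2-fold. Its value is given (normexp) where it moved the change of a named gene measured at both stages by over 1.5 times. The NPC and 72 h arrays did not overlap for 11729 genes (86.1%), so separation of the arrays by itself marks little. The median change over all genes was 0.01. Each change below is the 72 h mean minus the NPC mean, ± SE of the fit, with n = 2 arrays a stage. Counts of a list should be read against these shares.

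**Figure D1:**
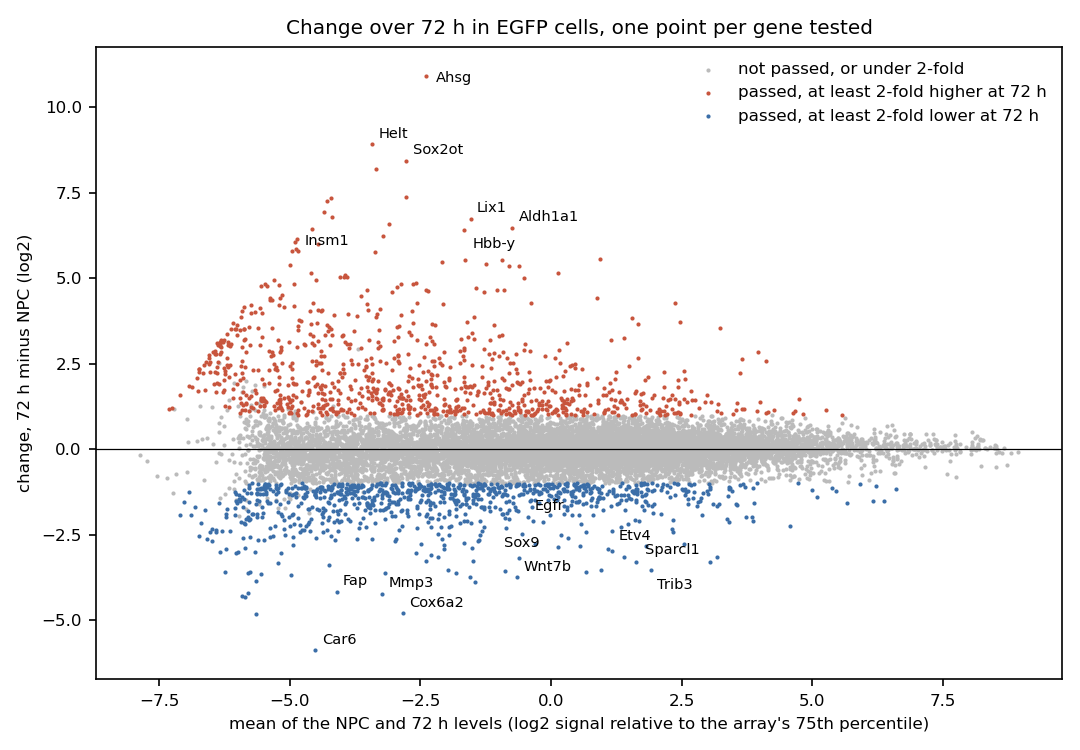
Change from NPC to 72 h (vertical axis, log2) of each of the 13615 genes tested against its mean level over the 4 EGFP arrays (horizontal axis, log2 relative to the 75th percentile); coloured points passed the limma test and were changed at least 2-fold. Of the genes, 911 are coloured as higher and 899 as lower, and the median over all is 0.01.

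The pluripotency genes did not move as a group, and no Pou5f1 signal above background was seen at either stage. Since the labels do not say what Dox switches on, it is not known whether any of these probes also read an introduced gene. Of the reprogramming factors, Klf4 had levels of 2.91 and 2.85 in NPC and of 2.01 and 2.03 at 72 h, a fall of 1.81-fold (-0.86 ± 0.035, adjusted p = 7.7e-06). Sox2 had levels of -2.0 and -1.96 in NPC and of -2.05 and -2.15 at 72 h, and its change of -0.12 ± 0.047 did not pass (adjusted p = 0.0682), though -0.17 did without 72 h replicate 1. Both Klf4 arrays at 72 h lay below both NPC arrays, and those of Sox2 lay close together.

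Myc, the factor that drives growth genes, has 3 probes on the array that went opposite ways. Probe A_52_P108346 read 1.5 and 1.43 in NPC and 5.04 and 4.96 at 72 h, and A_52_P278549 read -1.55 and -1.56, then 2.84 and 2.85. Probe A_51_P102096 read 2.05 and 1.97 in NPC and 0.37 and 0.32 at 72 h. Their changes were 3.54, 4.4 and -1.67, so Myc is given no direction. Nanog, Fgf4 and Ccnd1 had no probe named for them.

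Of 20 tested genes of the wider pluripotency network, 7 rose, 7 fell and 6 did not pass, with a median change of -0.03. Without NPC replicate 1 or with normexp correction, 4 rose. Among those that rose, Tfcp2l1, a factor of naive pluripotency downstream of LIF, had levels of -4.9 and -4.97 in NPC and of -2.55 and -2.35 at 72 h (2.49 ± 0.3, normexp 1.11, 5.61-fold, adjusted p = 0.000594). Lin28b, an inhibitor of let-7 microRNAs, was below background in NPC (-5.98 and -5.72) and above it at 72 h (-3.08 and -2.87), at least 6.25-fold higher. Of those that fell, Esrrb, a nuclear receptor of the naive network, went from -2.4 on both NPC arrays to -5.06 and -4.95 (-2.61 ± 0.193, normexp -1.29, 6.09-fold lower, adjusted p = 7.69e-05). Nr5a2, another nuclear receptor of that network, went below background, at least 4.34-fold lower (-3.54 and -3.58, then -5.53 and -5.88). Zfp42, a marker of naive cells chosen here after its value was seen, fell as well (-1.21).

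The noncoding RNA Sox2ot, whose locus holds Sox2 within an intron, was among the genes that appeared most strongly. It read -7.2 and -6.77 in NPC, below background, and 1.53 and 1.37 at 72 h, at least 134-fold higher (adjusted p = 1.01e-06), while Sox2 itself did not pass the test. A second probe of Sox2ot changed by 5.46.

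**Figure D2:**
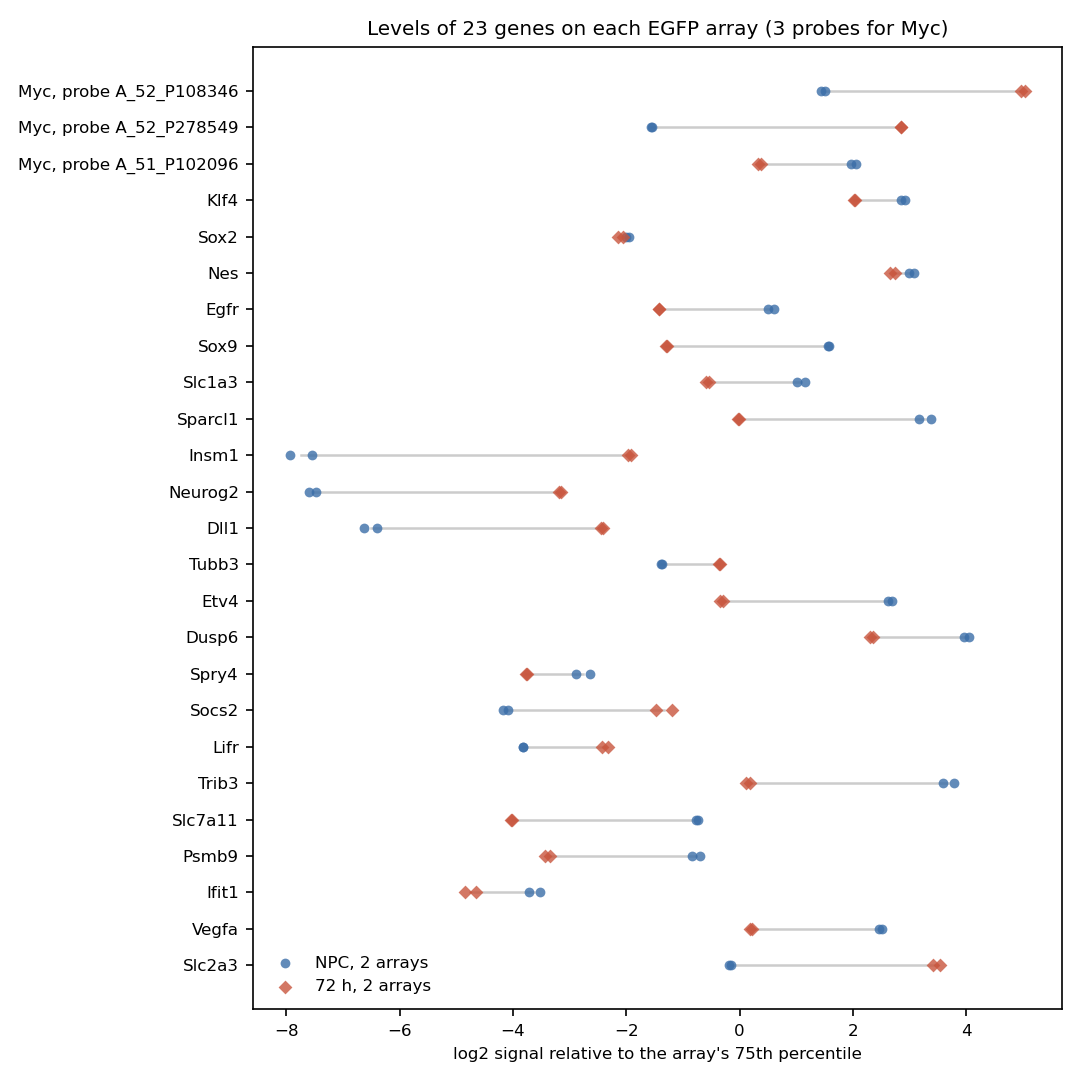
Levels (horizontal axis, log2 relative to the 75th percentile of the array) of 23 named genes on each of the 4 EGFP arrays, NPC in one colour and 72 h in the other; Myc is drawn for each of its 3 probes. The arrays of a stage lie close together, Klf4 and Dusp6 are lower at 72 h, Tubb3 and Slc2a3 higher, and the Myc probes go opposite ways.

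Neural identity genes split. Most astrocyte genes were lower, and more neuronal and oligodendrocyte genes rose than fell, with a smaller excess among genes bright on every array. Of 22 neural progenitor markers tested, 7 rose, 9 fell and 6 did not pass (median change -0.10). Of the 16 well above background on all 8 arrays, 3 rose and 8 fell. Nes, the intermediate filament used to define these cells, fell slightly, from 2.98 and 3.07 to 2.66 and 2.74 (-0.33 ± 0.046, adjusted p = 0.00114). Vim, another intermediate filament, had a change of 0.2 ± 0.085 that did not pass (adjusted p = 0.0805), and that passed with median scaling or normexp (0.24) or without 72 h replicate 1 (0.3). Sox9, a factor of progenitors and glia, dropped from 1.56 and 1.57 to -1.29 and -1.3 (-2.86 ± 0.028, 7.26-fold lower, adjusted p = 1.4e-07). Egfr, the receptor of the EGF in the NPC medium, dropped from 0.5 and 0.6 to -1.42 and -1.43 (-1.97 ± 0.053, 3.93-fold lower), and all 4 of its probes fell. For both genes the arrays of the stages lay far apart. Pax6, a progenitor and eye-field factor, rose from -1.38 and -1.45 to 0.6 and 0.59 (2.01 ± 0.045), though its 3 probes ranged from 0.36 to 2.01. The radial glia lipid-binding protein Fabp7, above background on 1 of 2 NPC arrays, rose from -5.99 and -5.54 to -2.98 and -3.09 (2.73 ± 0.223, normexp 0.84).

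Astrocyte genes were lower: of 10 tested, 8 fell, 1 rose and 1 did not pass, with a median change of -0.97 (-0.67 with dim genes set at their bound). Sparcl1, a matrix protein secreted by astrocytes, fell from 3.17 and 3.38 to -0.03 and -0.01 (-3.3 ± 0.09, 9.84-fold, adjusted p = 2.13e-06). S100b, a calcium-binding protein, fell from -2.33 and -2.21 to -3.99 and -3.95 (-1.7 ± 0.059). Apoe, the lipid carrier of astrocytes, fell from 3.53 and 3.65 to 2.02 and 2.06 (-1.55 ± 0.048). Gfap, the astrocyte filament, was close to background in NPC and below it at 72 h, at least 1.51-fold lower. The exception was the receptor Fgfr3, which rose (0.78 ± 0.074, normexp 0.35). The summed list level was 49.0 and 52.0 in NPC and 27.5 and 28.3 at 72 h, with no overlap.

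Of 24 neuronal genes tested, 14 rose (11 of them at least 2-fold), 7 fell and 3 did not pass, with a median change of 0.61. Some genes entered the test only through the stage where they were bright. Of the 15 well above background on all 8 arrays, 8 rose and 6 fell. The median was 0.49 with dim genes at their bound and 0.06 with normexp background correction, which draws dim genes together. Insm1, a zinc-finger factor of newborn neurons, was below background in NPC (-7.93 and -7.55) and read -1.91 and -1.97 at 72 h, at least 12.8-fold higher (adjusted p = 1.03e-06). The proneural factor Neurog2 appeared likewise, at least 5.48-fold higher, and the growth cone protein Gap43 at least 3.08-fold. Stmn2, a regulator of microtubules in growing axons, rose from -1.28 and -1.24 to 1.91 and 1.8 (3.11 ± 0.044, 8.65-fold, adjusted p = 3.5e-07). The neuronal tubulin Tubb3 rose from -1.39 and -1.37 to -0.35 and -0.37 (1.02 ± 0.04, 2.02-fold). Against these, the factors of forebrain interneurons fell, Dlx1 from -0.39 and -0.09 to -1.89 and -1.94 (-1.68 ± 0.097) and Dlx2 from 2.14 and 2.28 to 0.81 and 0.74 (-1.44 ± 0.07). The adhesion molecule Ncam1 fell on all 6 of its probes (-1.17 ± 0.053 on the brightest).

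Of 10 oligodendrocyte genes tested, 6 rose, 1 fell (2 with normexp correction) and 3 did not pass (median 0.50). Of the 6 well above background on all 8 arrays, 3 rose and 1 fell. Ugt8a, which makes the myelin lipid galactosylceramide, was below background in NPC and at least 18.6-fold higher at 72 h (-6.54 and -6.41, then -1.34 and -1.46). Mobp, a myelin protein, rose by 4.59 ± 0.257 (normexp 2.33). The precursor-cell proteoglycan Cspg4 rose by 1.82 ± 0.159, while Pdgfra, the growth factor receptor of the same precursors, fell from -1.22 and -1.13 to -2.57 and -2.48 (-1.35 ± 0.048). Mog, a late myelin protein, was below background at both stages.

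Of 20 Notch genes tested, 11 rose, 5 fell and 4 did not pass, and the median change was 0.69 (0.39 with dim genes at their bound, 0.15 with normexp correction). The receptors Notch1 (-1.11 and -1.12, then -2.15 and -2.04) and Notch2 (2.22 and 2.3, then 1.38 and 1.56) fell, with changes of -0.98 ± 0.068 and -0.79 ± 0.081. The fall of Notch3 (-0.47 ± 0.115) did not pass without 72 h replicate 1. Rbpj, the DNA-binding partner of all Notch receptors, fell from 1.64 and 1.65 to 0.14 and 0.08 (-1.53 ± 0.032, 2.89-fold, adjusted p = 9.32e-07). The ligand Dll1 appeared from below background, at least 9.14-fold higher. The target Hey1 rose from -3.51 and -3.41 to 0.31 and 0.19 (3.72 ± 0.087, 13.1-fold, adjusted p = 1.32e-06), and the target Hes5 appeared, at least 2.96-fold higher. The fringe enzyme Mfng, which modifies the receptors, rose by 1.96 ± 0.069.

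Of 23 neural patterning factors tested, 10 rose, 5 fell and 8 did not pass (median 0.31, or 0.17 with dim genes at their bound, and -0.01 with normexp correction, where 5 rose and 5 fell). Lhx2, a forebrain and eye factor, rose from -2.02 and -2.11 to 0.51 and 0.43 (2.53 ± 0.059, 5.79-fold). The spinal cord interneuron factor Dbx1 appeared, at least 6.91-fold higher, as did Nkx6-2, at least 6.51-fold. The hindbrain gene Hoxb2 fell from -2.19 and -2.65 to -4.44 and -4.92 (-2.26 ± 0.235, normexp -1.25). Hoxa2 (-0.99 ± 0.034) and Meis2, a partner of Hox proteins (-1.35 ± 0.049), fell as well.

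Genes that report FGF and ERK signalling fell almost throughout. Of 25 tested, 22 fell (15 at least 2-fold), 2 rose and 1 did not pass, against 33.9% of all genes falling, and the median change was -1.21. Etv4 and Etv5, transcription factors switched on by FGF, went from 2.69 and 2.61 to -0.34 and -0.29 (-2.97 ± 0.04, 7.82-fold, adjusted p = 2.92e-07) and from -0.68 and -0.71 to -3.2 on both arrays (-2.5 ± 0.087). The AP-1 subunit Fosl1 fell from 1.14 and 1.01 to -1.72 and -1.65 (-2.76 ± 0.056). The feedback phosphatase Dusp6 fell from 3.96 and 4.04 to 2.3 and 2.36 (-1.67 ± 0.039, 3.18-fold, adjusted p = 1.29e-06), and the feedback inhibitor Spry4 from -2.89 and -2.64 to -3.77 and -3.76 (-1.0 ± 0.151, adjusted p = 0.00159). In each of these genes both 72 h arrays lay below both NPC arrays. Egr1, an immediate early gene, fell by 0.91 ± 0.087. Chosen after their values were seen, Dusp4 (-2.3), Il17rd (-2.1) and Spry1 (-1.66) fell too, while the 2 probes of Spry2 read -1.46 and -0.06. The immediate early gene Fos rose slightly (0.35 ± 0.047, normexp 0.09), a call lost with normexp correction, and the other riser was Myc, whose probes disagreed.

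The LIF and STAT3 list, 22 genes tested, held 10 that rose and 8 that fell (median 0.05). The LIF receptor Lifr read -3.82 on both NPC arrays and -2.33 and -2.43 at 72 h (1.44 ± 0.056, normexp 0.29, 2.71-fold, with probes from 0.35 to 1.44). Stat3 rose from 3.73 and 3.83 to 4.1 and 4.11 (0.33 ± 0.04, adjusted p = 0.000675). Of the feedback inhibitors that STAT proteins induce, Socs2 rose from -4.08 and -4.17 to -1.48 and -1.2 (2.79 ± 0.117, normexp 1.65, 6.91-fold, adjusted p = 8.64e-06) and Socs1 fell from 2.02 and 2.03 to 0.93 and 0.94 (-1.09 ± 0.037). Socs3, the inhibitor of the LIF receptor, changed by 0.16 ± 0.037 (adjusted p = 0.0106), a call lost with quantile or spike-in scaling or without NPC replicate 1 or 72 h replicate 2. The oncostatin M receptor Osmr, which shares the LIF receptor's signalling chain, fell by 1.05 ± 0.081.

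In the BMP and TGF-beta list 13 of 28 rose and 13 fell. Fst, which binds and blocks activin, appeared (-6.25 and -6.18, then -3.64 and -3.76, at least 3.78-fold). The BMP target Id4 fell from 1.37 and 1.34 to -0.56 on both arrays (-1.91 ± 0.028, 3.77-fold). In the Wnt list 11 of 23 rose and 9 fell. The ligand Wnt7b dropped from 1.33 and 1.12 to -2.56 and -2.48 (-3.74 ± 0.082, 13.4-fold, adjusted p = 1.1e-06), the secreted inhibitor Sfrp2 rose from -3.48 and -3.47 to -0.81 and -0.8 (2.67 ± 0.032) and the inhibitor Dkk3 fell by 1.91 ± 0.063. Neither list leaned one way, and the medians of 0.06 and 0.15 turned to -0.06 and -0.05 with normexp correction.

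Of 16 genes of the insulin-like growth factor axis, 10 fell and 4 rose (median -0.48). The ligands went opposite ways. Igf1 rose from -4.75 and -4.68 to -1.11 on both arrays (3.6 ± 0.063, normexp 2.06, 12.2-fold, adjusted p = 5.63e-07), and Igf2 fell from 2.29 and 2.43 to -0.06 and near 0 (-2.39 ± 0.06, 5.25-fold). The adaptor Grb14, which dampens insulin receptor signalling, rose from -0.28 and -0.2 to 3.03 and 3.01 (3.26 ± 0.038, 9.6-fold).

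Targets of the transcription factor ATF4, which is made when amino acids run short or proteins misfold and then raises amino acid uptake and synthesis, were lower at 72 h with few exceptions. Of 30 tested, 28 fell (15 at least 2-fold), 1 rose and 1 did not pass, with a median change of -1.0. Slc7a3, an importer of arginine and lysine, fell from 2.8 and 2.65 to -0.82 and -0.81 (-3.54 ± 0.063, 11.6-fold, adjusted p = 5.89e-07). Trib3, a pseudokinase that restrains ATF4, fell from 3.79 and 3.58 to 0.18 and 0.11 (-3.54 ± 0.073). The cystine importer Slc7a11 fell from -0.73 and -0.77 to -4.02 and -4.03 (-3.27 ± 0.05, 9.68-fold, all 3 probes), and the glutathione-degrading enzyme Chac1 from 3.65 and 3.44 to 1.23 and 1.02 (-2.42 ± 0.097). For each of these the arrays of the stages were far apart. Chosen after their values were seen, the asparagine synthetase Asns (-1.57 ± 0.093), Atf3 (-1.38 ± 0.089), Ddit3 (-1.9) and Atf4 itself (-0.86 ± 0.08) fell. The only riser was the secreted glycoprotein Stc2 (0.37 ± 0.073, normexp 0.22, adjusted p = 0.00474).

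ATF4 binds, with a C/EBP partner, sites of the form TGATGNAA (TTNCATCA on the other strand). Letters of this form were found on either strand in the 250 bases before the RefSeq start of 7 of the 25 ATF4-list genes with a window, against 3.91% of all 27025 genes (1056). The motif and the genes shown were chosen after their values were seen, and a match is a description of the letters only. Stretches of 4 of these promoters are shown because their genes are members that fell; they are given on the gene's strand in build GRCm38.p6, with the matches in capitals.
Slc7a11, chr3:50443633-50443699, minus strand: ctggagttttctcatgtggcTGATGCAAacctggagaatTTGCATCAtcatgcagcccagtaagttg
Chac1, chr2:119351029-119351076, plus strand: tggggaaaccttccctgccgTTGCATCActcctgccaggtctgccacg
Asns, chr6:7693210-7693252, minus strand: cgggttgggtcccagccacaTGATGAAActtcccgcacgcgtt
Atf3, chr1:191183416-191183463, minus strand: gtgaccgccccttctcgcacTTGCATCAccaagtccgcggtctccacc

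The related folding-stress lists went another way. Of 22 endoplasmic reticulum chaperones and helpers, 14 rose and 4 fell (median 0.23), with the calcium-binding chaperone Calr at 0.61 ± 0.04 and Edem1, which sorts misfolded proteins for destruction, at 0.87 ± 0.049. The sensor Ern1 fell (-0.61 ± 0.055). Of 20 heat shock genes, 13 rose and 2 fell (median 0.25). The small heat shock protein Cryab rose from 1.04 and 1.01 to 3.27 and 3.29 (2.25 ± 0.029, 4.76-fold, adjusted p = 2.6e-07) and Hspb8 from 0.83 and 0.75 to 2.42 and 2.41 (1.63 ± 0.038). The inducible Hspa1a and Hspa1b, near-identical genes that probes may not tell apart, were the ones that fell (-0.52 ± 0.048 and -0.37 ± 0.04).

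Genes of the interferon response, the defence program that interferons switch on, were also lower. Of 34 tested, 29 fell (12 at least 2-fold), 3 rose and 2 did not pass, with a median change of -0.72 (-0.65 with dim genes at their bound). Psmb9, a subunit of the immunoproteasome, fell from -0.84 and -0.7 to -3.34 and -3.44 (-2.62 ± 0.126, 6.14-fold, adjusted p = 1.44e-05). Psmb8, another such subunit, went below background, at least 2.89-fold lower. The GTPase Iigp1 fell from 0.16 and 0.36 to -1.6 and -1.48 (-1.8 ± 0.1) and the antigen peptide transporter Tap2 from -1.71 on both arrays to -3.54 and -3.33 (-1.73 ± 0.093). Among the risers were Cxcl10 (0.21 ± 0.054) and Gbp3 (0.12 ± 0.027), and neither call passed with spike-in scaling. Chosen after their values were seen, Rsad2 (-3.69 and -3.76, then -5.6 and -5.25), Ifit3 (-1.9 and -1.69, then -3.19 and -3.08) and Ifit1 (-3.72 and -3.53, then -4.85 and -4.66) changed by -1.7 ± 0.114, -1.34 ± 0.088 and -1.13 ± 0.153 and passed the test. Isg15, a ubiquitin-like protein, went from 1.6 and 1.7 to 1.21 and 1.14 (-0.48 ± 0.052). Of the immune cell markers, Ptprc, Aif1 and Itgam were below background at both stages. Of the 5 genes of the wider immune list that were tested, 2 fell (Cd14 by 1.3 ± 0.037, Fcer1g at -0.45 ± 0.084) and Laptm5 rose (0.56 ± 0.038, normexp 0.1, a call lost with normexp correction). The summed level of those 5 was 1.08 and 1.03 in NPC and 0.609 and 0.646 at 72 h, and its part in the interferon fall was not tested.

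The interferon-stimulated response element contains the letters GAAA, any 2 letters and GAAA again (TTTC, any 2 letters and TTTC on the other strand). They occurred on either strand in the 250 bases before the start of 12 of the 29 interferon-list genes with a window, against 3.46% of all 27025 genes (936); this motif too was chosen after the values were seen. Stretches of 4 such promoters, of genes that fell, are shown in the same way, and in Ifit1 and Ifit3 the element occurs in a pair.
Ifit1, chr19:34640765-34640833, plus strand: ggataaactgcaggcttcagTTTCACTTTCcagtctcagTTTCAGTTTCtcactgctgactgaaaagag
Ifit3, chr19:34583353-34583436, plus strand: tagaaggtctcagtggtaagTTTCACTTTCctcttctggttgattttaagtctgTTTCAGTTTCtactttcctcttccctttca
Rsad2, chr12:26456543-26456592, minus strand: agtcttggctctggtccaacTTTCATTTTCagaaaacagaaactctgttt
Isg15, chr4:156200855-156200916, minus strand: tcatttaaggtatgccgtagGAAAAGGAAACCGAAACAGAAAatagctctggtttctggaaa

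**Figure D3:**
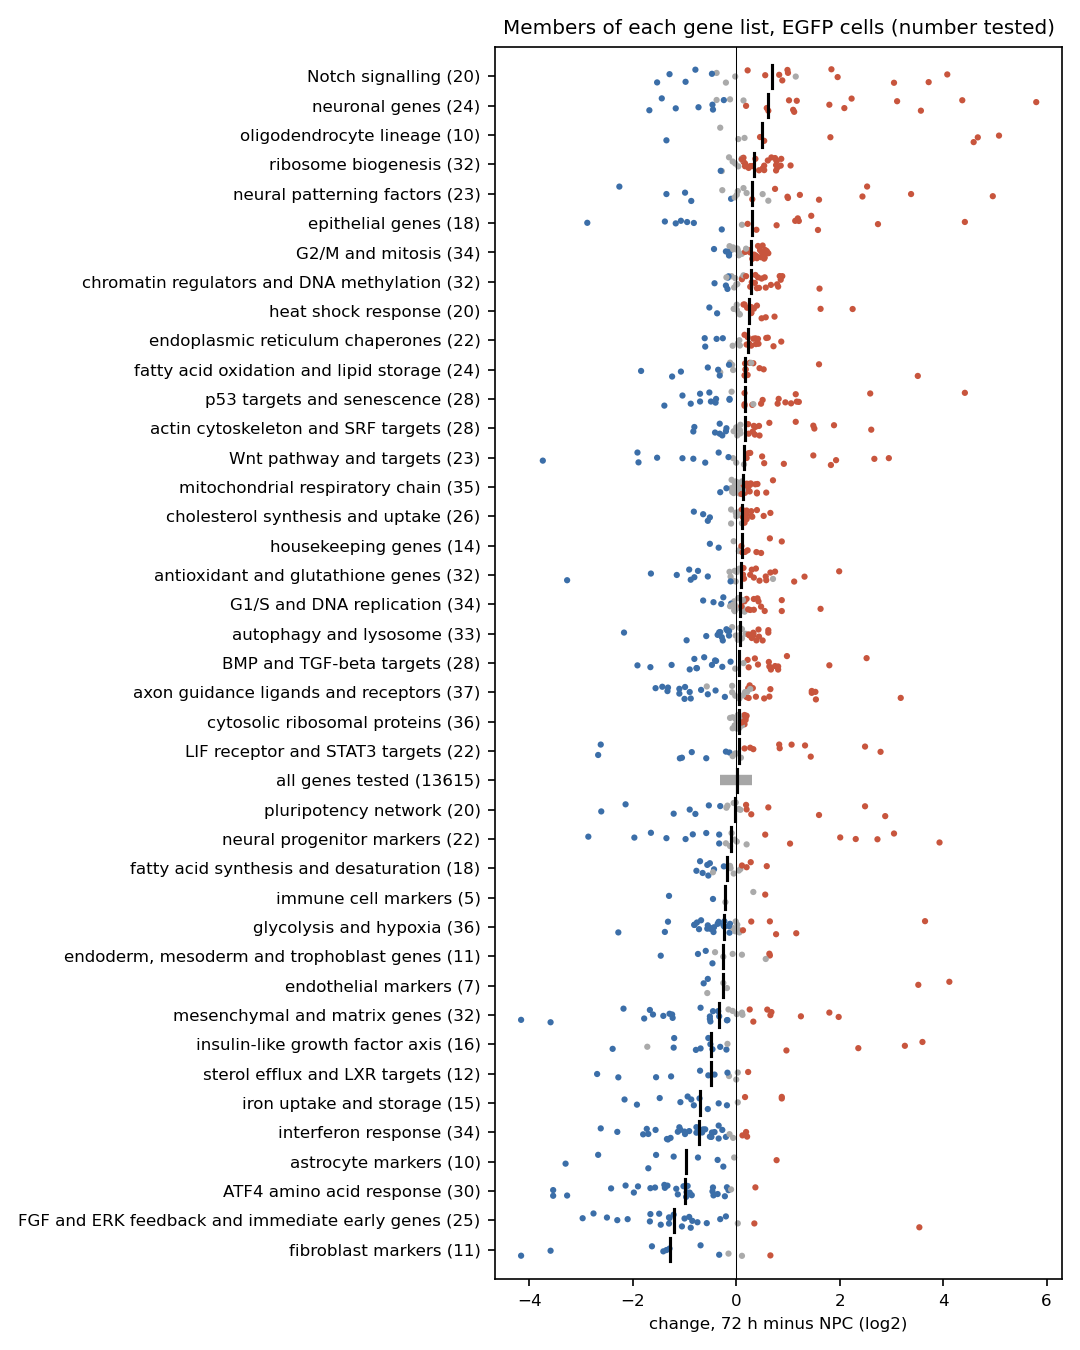
Change from NPC to 72 h (horizontal axis, log2) of the tested genes of each gene list; each point is a gene (red passed and rose, blue passed and fell, grey did not pass), the black bar is the median, and the grey bar marks the middle of all genes tested. The FGF and ERK list (median -1.21), the ATF4 list (-1.0) and the interferon list (-0.72) lie to the left of 0, and ribosome biogenesis (0.34) to the right.

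Glycolysis and hypoxia genes were lower in part: of 36 tested, 23 fell, 6 rose and 7 did not pass (median -0.23). Vegfa, the hypoxia-induced vessel growth factor, fell from 2.51 and 2.46 to 0.18 and 0.22 (-2.28 ± 0.05, 4.86-fold, all 4 probes), the lactate exporter Slc16a3 from 4.05 and 4.1 to 2.69 on both arrays (-1.38 ± 0.032) and Egln3, a hydroxylase that HIF induces, from 2.47 on both to 1.14 and 1.17 (-1.32 ± 0.061). Against the list, the neuronal-type glucose transporter Slc2a3 rose from -0.16 and -0.19 to 3.54 and 3.41 (3.65 ± 0.065, 12.5-fold, adjusted p = 5.89e-07).

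Sterol efflux genes, which the oxysterol receptor LXR switches on, fell in 8 of 12 cases, 1 rose and 3 did not pass (median -0.48). The cholesterol exporters Abcg1 (-2.69 ± 0.06, 6.47-fold) and Abca1 (-2.28 ± 0.076, 4.85-fold) led, followed by Apoe and by Mylip, which degrades the LDL receptor (-1.26 ± 0.049). Abca1 read -1.06 and -0.85 in NPC and -3.22 and -3.25 at 72 h. Of 26 genes of cholesterol synthesis and uptake, 14 rose and 4 fell (median 0.12), but 8 rose without NPC replicate 2, 9 without 72 h replicate 2 and 7 with spike-in scaling. Their regulator Srebf2 fell (-0.55 ± 0.037).

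In fatty acid synthesis 8 of 18 fell and 4 rose (2 without 72 h replicate 2 or with spike-in scaling), with the regulator Srebf1 at -0.7 ± 0.027. In fatty acid oxidation and storage 12 of 24 rose and 7 fell, or 6 and 6 with spike-in scaling. The thioesterases Acot1 (1.6 ± 0.047) and Acot2 (-1.84 ± 0.121, normexp -1.22), close paralogs, went opposite ways.

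Iron genes fell in 11 of 15 cases, 3 rose and 1 did not pass (median -0.71). The ferroxidase Cp fell from 3.78 and 3.91 to 1.89 and 1.96 (-1.92 ± 0.057, 3.78-fold, adjusted p = 2.78e-06). The transferrin receptor Tfrc rose from 0.66 and 0.63 to 1.52 and 1.53 (0.88 ± 0.037) and the iron importer Slc11a2 from -1.29 and -1.24 to -0.4 and -0.37 (0.88 ± 0.033). The heavy chain of ferritin, Fth1, chosen after its value was seen, fell by 0.82. Other leading members of the list fell, Tfr2 by -2.16 (normexp -1.21) and Steap3 by -1.48 (normexp -0.78). The list thus gives no general contrast of iron uptake with storage.

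Of 32 antioxidant and glutathione genes, 15 rose and 9 fell (median 0.10). The NRF2 targets Nqo1 (-0.81 ± 0.069), Srxn1 (-0.88 ± 0.054), Osgin1 (-0.74 ± 0.028) and Hmox1 (-0.55 ± 0.029) were among those that fell, as were the metallothioneins Mt1 (-0.91 ± 0.041) and Mt2 (-1.15 ± 0.051). The detoxifying hydrolase Ephx1 rose from -0.28 and -0.34 to 0.98 and 1.04 (1.32 ± 0.036).

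Of 32 ribosome biogenesis genes, 24 rose, 1 fell and 7 did not pass (median 0.34), against 36.1% of all genes rising. The nucleolar proteins Bop1 (3.31 and 3.17, then 4.14 and 4.06; 0.86 ± 0.054), Dkc1 (0.21 and 0.09, then 1.02 on both; 0.87 ± 0.056) and Nolc1 (1.69 and 1.61, then 2.46 and 2.43; 0.8 ± 0.038) rose by amounts close to each other. The exception was Wdr12 (-0.3 ± 0.042), and 2 genes fell without NPC replicate 2, without either W20 72 h array or with a replicate block. The ribosomal proteins themselves moved little: 8 of 36 rose and 28 did not pass (median 0.05), and 2 to 4 rose when an EGFP array was left out and 5 when a W20 NPC array was. Of 35 respiratory chain genes, 18 rose and 2 fell (median 0.13, with 11 rising without NPC replicate 2 and 8 falling with quantile normalization).

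Of 34 genes of G1/S and DNA replication, 14 rose, 5 fell and 15 did not pass (median 0.08), and 8 fell with quantile normalization. E2f2, a transcription factor of S-phase entry, rose from 0.94 on both arrays to 2.57 on both (1.63 ± 0.028, 3.09-fold, adjusted p = 5.18e-07), and the cyclins Ccnd3 and Ccne1 by 0.88 ± 0.031 and 0.88 ± 0.059. Of 34 G2/M genes, 21 rose and 5 fell (median 0.29). The mitotic kinase Cdk1 rose from 1.99 and 1.88 to 2.53 and 2.52 (0.59 ± 0.044). 1 or 2 fell without NPC replicate 1, without either 72 h replicate, or with median or spike-in scaling. Of 28 p53 and senescence genes, 15 rose and 11 fell (median 0.16). The cell cycle inhibitor Cdkn1a rose from 0.4 and 0.36 to 1.17 and 1.19 (0.8 ± 0.039, 1.74-fold), while the inhibitors at the Ink4 locus fell, Cdkn2b from 5.78 on both arrays to 4.37 and 4.42 (-1.39 ± 0.035, 2.62-fold) and Cdkn2a from 4.1 and 4.12 to 3.63 and 3.62 (-0.49 ± 0.051). Gadd45g, a stress-induced growth regulator, rose from 2.82 and 2.83 to 5.43 and 5.39 (2.59 ± 0.043, 6.0-fold).

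Of 32 chromatin regulators, 19 rose and 5 fell (median 0.28), and 2 or 3 fell without NPC replicate 2 or either 72 h replicate and 1 with median or spike-in scaling. Tet2, which oxidises 5-methylcytosine, rose from -3.86 and -3.5 to -2.19 and -1.94 (1.61 ± 0.144, normexp 0.94, 3.05-fold). Its relative Tet3 (0.84 ± 0.071, with probes from -0.01 to 0.84), the H3K79 methyltransferase Dot1l (0.89 ± 0.07) and the demethylase Kdm4c (0.86 ± 0.067) rose too. Chosen after their values were seen, Dnmt3b (0.79), the Polycomb enzyme Ezh2 (0.55) and its partner Jarid2 (0.81) rose. In contrast, the chromatin genes Mtf2 (-0.2), Smarca4 (-0.17) and Smarcc1 (-0.15) fell slightly, calls lost with median or spike-in scaling.

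Epithelial and mesenchymal genes each went both ways. An early event of fibroblast reprogramming is a shift from mesenchymal to epithelial genes, and these lists address whether a like shift was seen here. Of 18 epithelial genes, 10 rose and 7 fell (median 0.31, or 0.1 with normexp correction). Perp, a desmosome protein, rose from -1.35 and -1.32 to 3.16 and 3.0 (4.42 ± 0.091, 21.4-fold, adjusted p = 9.26e-07), and the desmosome linker Dsp from -2.35 and -2.38 to 0.35 and 0.4 (2.74 ± 0.057). E-cadherin, Cdh1, rose from -4.75 and -4.89 to -3.62 and -3.65 (1.19 ± 0.061, normexp 0.3, 2.28-fold). The adhesion molecule Epcam, which marks epithelia and pluripotent cells, fell from -2.75 and -2.6 to -3.97 and -3.73 (-1.17 ± 0.262, normexp -0.75), the tight junction protein Cldn6 fell by 2.88 ± 0.109, and the keratin Krt18 fell by 1.07 ± 0.045. Of 32 mesenchymal and matrix genes, 19 fell (10 at least 2-fold), 8 rose and 5 did not pass (median -0.34). Fibronectin, Fn1, fell from 2.48 and 2.65 to 0.27 and 0.5 (-2.18 ± 0.115, 4.52-fold, adjusted p = 2e-05) on all 3 probes. N-cadherin, Cdh2, rose from -0.7 and -0.64 to 0.64 and 0.53 (1.25 ± 0.079, 2.38-fold), alongside E-cadherin, and thrombospondin, Thbs1, from -1.74 and -1.53 to 0.25 and 0.42 (1.98 ± 0.084).

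Most fibroblast markers were lower: of 11 tested, 8 fell (6 at least 2-fold), 1 rose and 2 did not pass (median -1.29, or -0.87 with normexp correction). The changes of the bright collagens Col1a1 (0.11 on its brightest probe) and Col1a2 (-0.15) did not pass. Fap, a protease of activated fibroblasts, went below background, at least 13.3-fold lower (-2.25 and -1.79, then -6.25 and -6.1), and the matrix proteoglycan Lum at least 2.48-fold lower. Prrx1, a factor of limb and connective tissue mesenchyme, fell from 4.28 and 4.45 to 2.71 and 2.76 (-1.63 ± 0.06) on all 4 probes. The riser was Thy1 (0.66 ± 0.033, normexp 0.34), whose other probe read -0.93 and whose probes averaged -0.13. Without NPC replicate 2, 2 markers rose. Of 28 actin and SRF target genes, 14 rose and 8 fell (median 0.16), led by the muscle actins Acta1 (2.61 ± 0.146, normexp 1.25) and Actc1 (1.89 ± 0.061) and by Cnn1, a smooth muscle calponin (1.51 ± 0.115).

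Of 7 endothelial genes tested, 2 rose and 2 fell, and 1 fell without NPC replicate 2, 72 h replicate 2 or either W20 NPC array. The receptors Kdr and Tek appeared from below background, at least 4.32-fold and 2.55-fold higher, while the defining markers Cdh5 and Pecam1 stayed below it. Of 11 genes of endoderm, mesoderm and trophoblast, 4 fell, 2 rose and 5 did not pass, with Foxa2, an endoderm factor, at -0.74 ± 0.043 and Bmp4, a ligand of mesoderm induction, at 0.64 ± 0.052. Leaving out 1 array moved the fallers to 2 (NPC replicate 2) or the risers to 4 (72 h replicate 2), and with normexp correction 1 rose and 5 fell. Of 14 housekeeping genes, 8 rose and 2 fell (median 0.11), and 5 rose without either NPC replicate or without 72 h replicate 2, with Tbp at 0.48 ± 0.029 (normexp 0.3) and Gusb at -0.51 ± 0.041.

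The largest increase among genes measured at both stages was that of Lix1, from -4.93 and -4.89 to 1.82 and 1.84 (6.74 ± 0.034, 107-fold, adjusted p = 3.87e-08). Aldh1a1, which makes retinoic acid from retinal, rose from -4.03 and -3.92 to 2.5 on both arrays (6.48 ± 0.056, 89.2-fold), and its relative Aldh1a7 from -1.86 and -1.84 to 3.71 and 3.73 (5.57 ± 0.036, 47.5-fold). The embryonic globin Hbb-y rose from -5.23 and -4.53 to 1.56 and 1.51 (6.42 ± 0.214, 85.6-fold). Its lower NPC signal lay close to background, which limits the precision of that fold. The 10 largest increases also held the protein kinase Prkcb (5.52 ± 0.128), the ubiquitin ligase Mid2 (5.52 ± 0.065), the nuclear pore protein Nup210 (5.37 ± 0.084) and the membrane protein Tmem35a (5.36 ± 0.069). The transcription factor Sox21 (5.46 ± 0.071, normexp 3.61) and the adhesion molecule Ceacam1 (5.43 ± 0.064) completed them, with other probes down to 0.63 and 1.79.

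The largest decrease among genes measured at both stages was that of Cox6a2, a cytochrome oxidase subunit of heart and skeletal muscle, from -0.43 and -0.44 to -5.34 and -5.13 (-4.8 ± 0.069, normexp -3.18, 27.8-fold, adjusted p = 3.56e-07). The matrix protease Mmp3 fell from -1.19 and -1.05 to -5.25 and -5.42 (-4.22 ± 0.134, normexp -2.61, 18.6-fold) and Ramp1, a partner of the CGRP receptor, from 0.51 and 0.46 to -3.34 and -3.49 (-3.89 ± 0.105, 14.9-fold). The ligand Wnt10a fell from 0.31 and 0.35 to -3.53 and -3.32 (-3.75 ± 0.125). The retinoic acid target Stra8, which admits germ cells to meiosis, fell from 0.05 and -0.08 to -3.67 and -3.59 (-3.61 ± 0.058), while the retinoic acid enzyme Aldh1a1 was among the largest risers. Dlx4os (-3.61 ± 0.118, normexp -2.12), the repressor Hic1 (-3.59 ± 0.067), the mitochondrial folate enzyme Aldh1l2 (-3.57 ± 0.072), Trib3 and Wnt7b completed the 10.

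In all, 289 of the 13615 genes tested passed and were well above background on both 72 h arrays and on neither NPC array, and 155 the reverse. Such genes could enter the test through their bright stage alone. Ahsg, the plasma protein fetuin-A made mainly by liver, read -7.83 and -7.89 in NPC and 3.04 and 3.08 at 72 h, at least 409-fold higher (adjusted p = 6.15e-08). Helt, a factor of midbrain inhibitory neurons, read -7.86 and -7.89, then 1.06 and 1.02, at least 101-fold higher. The bounds of the other leading genes were 93.0-fold for Slurp1, 81.7-fold for the zinc transporter Tmem163, 56.2-fold for Nat8l, which makes N-acetylaspartate in neurons, 45.5-fold for the muscle myosin Myh2 and 35.3-fold for Clic5. Of genes that went below background, the secreted carbonic anhydrase Car6 (-1.57 on both NPC arrays, then -7.67 and -7.22) was at least 18.2-fold lower. Fap has been given above. Adm2 was at least 5.7-fold lower, and the bounds were smaller for Pax1 (5.69-fold), Rbm47 (5.38-fold), Kank4 (4.99-fold) and Ano9 (4.65-fold). The factor Ebf2 was at least 6.13-fold lower (adjusted p = 0.0131), a call lost without NPC replicate 2 (0.0576), 72 h replicate 1 (0.0512) or 72 h replicate 2 (0.0546).

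**Figure D4:**
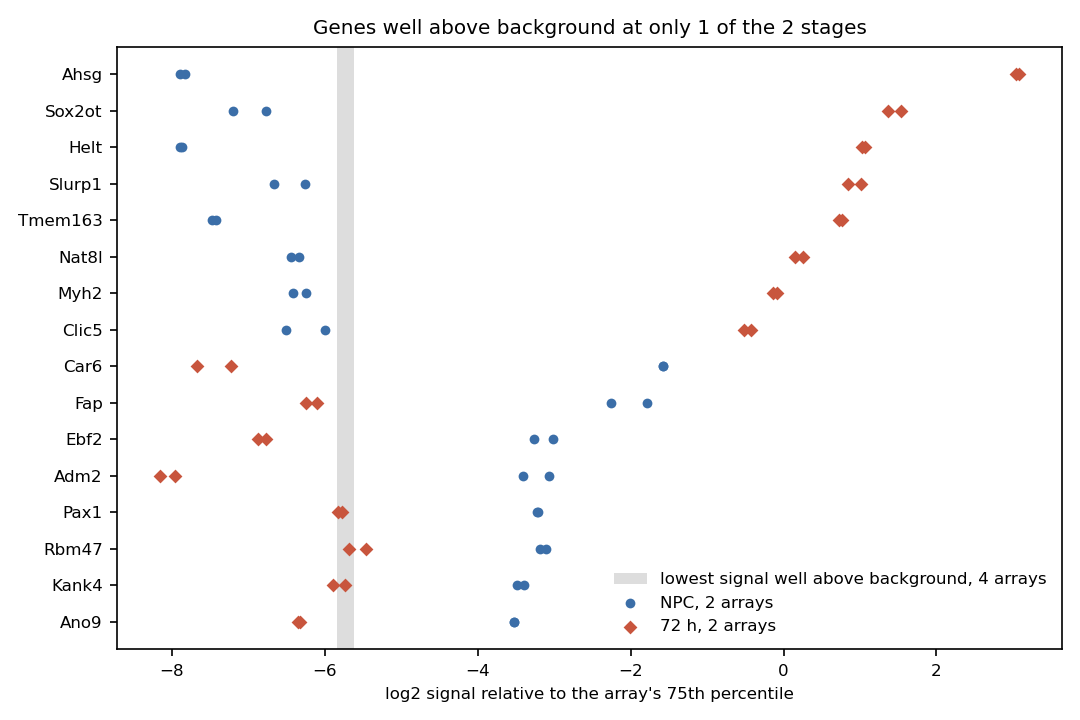
Levels (horizontal axis, log2 relative to the 75th percentile) on the 4 EGFP arrays of the 8 genes with the largest bound that appeared at 72 h and the 8 that went below background; the grey band spans the lowest signals well above background on these arrays. Ahsg lies near -7.83 in NPC and near 3.04 at 72 h, and Car6 goes the other way, from -1.57 to -7.67 and -7.22.

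The same interval in W20 cells gives a comparison on 4 separate arrays. There 10169 genes (74.7%) passed, and 8045 were called in the same direction in both, which is 84.5% of the EGFP calls and 79.1% of the W20 calls; 305 were called in opposite directions and 1173 EGFP calls did not pass in W20 cells. Of the 1810 EGFP calls of at least 2-fold, 1690 (93.4%) were called the same way and 19 the opposite way. The change itself differed between the cells, by the interaction term of the limma fit, for 4205 genes (30.9%), or for 1924 with spike-in scaling. The W20 change was higher for 1915 (14.1%) and lower for 2290 (16.8%), and by at least 1 on the log2 scale for 288 and 247. W20 arrays lay on the same slides by stage, so the slide is shared by both changes.

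Of the 10 largest EGFP increases among genes measured at both stages, 5 differed from the W20 change and 4 of these by at least 1 on the log2 scale (Lix1, Ceacam1, Aldh1a7 and Tmem35a). Of the 10 largest decreases, 8 differed and 6 of these by at least 1 (Cox6a2, Trib3, Ramp1, Wnt10a, Mmp3 and Aldh1l2). Of the 8 leading genes that appeared, 2 differed, and of the 8 that went below background, 5 did. Over all genes tested, 30.9% differed. The genes counted here were picked by their EGFP change, which is itself a term of the difference. That choice favours a difference, so the counts give no result about these genes as a set. Ahsg (difference 0.3, adjusted p = 0.0864) and Sox2ot (0.15, adjusted p = 0.686) did not pass the test of the difference, which does not show that their changes were equal. Among the genes whose change differed, Cox6a2 changed by -4.8 in EGFP cells and by -1.13 in W20 cells (difference 3.67, adjusted p = 0.000114). Fhl1, a LIM protein of muscle, rose by 1.68 in EGFP and 4.53 in W20 cells (2.84), and the laminin chain Lama4 changed by -1.9 in EGFP and 0.78 in W20 cells (2.68). Pcdh10 changed by 0.26 and 2.95 (2.69), the first a call lost when most single arrays were left out. In the other direction Prl2c5, a placental prolactin relative, changed by -2.25 and -5.3 (difference -3.05), the muscle ankyrin repeat protein Ankrd1 by -0.81 and -3.48 (-2.67), Cldn6 by -2.88 and -5.34 (-2.46), the surface glycoprotein Msln by -1.6 and -3.89 (-2.29) and Spns3 by 0.45 and -1.63 (-2.08). The change of Spns3 in EGFP cells was 0.27 with normexp.

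Several genes of the signalling and stress lists also differed. Spry4 fell by 1.0 in EGFP cells and rose by 0.89 in W20 cells (difference 1.89, adjusted p = 0.00226), and Egr1 went from -0.91 to 1.36 (2.27, adjusted p = 0.000277), while Etv4 fell in both cells (-2.97 and -3.59, difference -0.63). In the ATF4 list the fall was larger in EGFP than in W20 cells for Slc7a11 (difference 1.88), Chac1 (1.77) and Trib3 (1.73), whereas Slc7a3 differed by 0.28 (adjusted p = 0.0605). Of the reprogramming factors, Klf4 fell by 0.42 more in W20 cells (adjusted p = 0.00254), and Sox2 changed by -0.12 in EGFP and 0.74 in W20 cells (0.86, adjusted p = 0.00071). Stat3 (0.45) and Socs3 (0.55) rose by more in W20 cells.

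**Figure D5:**
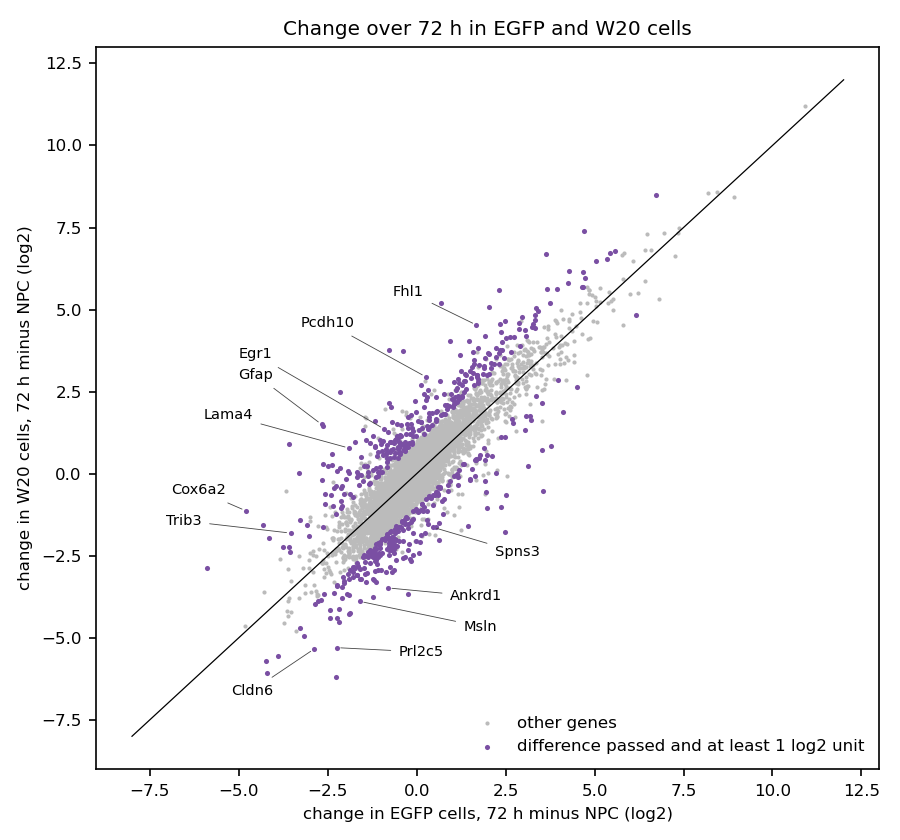
Change from NPC to 72 h in W20 cells (vertical axis, log2) against that in EGFP cells (horizontal axis, log2), for the 13615 genes tested; purple points differ between the cells by the interaction term and by at least 1 on the log2 scale. Most genes lie along the diagonal, and Cox6a2, at -4.8 and -1.13, lies far above it.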

How the data were processed

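Total RNA of the 4 EGFP samples was labelled with Cy3 and hybridised to 1-colour Agilent whole mouse genome arrays. Per the file headers, Agilent Feature Extraction had corrected the deposited spot intensities, which are linear, for background. The deposited value table holds log2 values. Its columns labelled replicate 1 at 72 h equalled the mean of both NPC arrays of the same cells (99.8% of probes within 0.01). Its columns labelled replicate 2 equalled the mean of both 72 h arrays, so the table was not used. Its EGFP column medians were -3.78 and -3.73 (NPC) and -3.77 and -3.88 (72 h), and its centring stayed unstated.

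The log2 of the processed signal minus each array's 75th percentile was averaged over the spots of a probe. Control spots and outlier spots were left out. Probe accessions were matched to RefSeq gene symbols (GRCm38.p6): 27584 of 41174 probes matched, while 13590 without a symbol were left out. Each gene was read from its brightest probe (mean of 8 arrays). A gene was tested if some group had that probe well above background on both its arrays, as 13615 did. A limma model (version 3.58.1, R 4.3.3, lmFit and eBayes) of 4 group means was fitted to the 8 arrays, with 4 residual degrees of freedom, with two-sided Benjamini-Hochberg adjusted p and a threshold of 0.05. On simulated data with known changes the fit recovered 100% of 200 changed genes. Every simulated gene had the same small spread, and the planted changes were large against it. The recovery therefore checks the working of the fit only, and not the calls made here. "At least N-fold" compares the bright stage with a floor for the dim stage, which on each array is its lowest well-above-background signal or, if higher, the signal of the probe.

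The comparison, its 41 gene lists and the rule for named genes were chosen with earlier results of these data known. The rule took the 10 largest changes in each direction, the 8 largest on and off bounds, up to 4 leading members and the members against the majority of each list, 24 genes named in advance, and the 5 largest differences from W20 in each direction. That gave 315 genes, of which those described here are a part. Some genes are not reported here. Alternatives were normexp (offset 50), quantile, median and spike-in scaling, 2 other filters on dim probes, the mean of a gene's probes, a fit of 4 arrays, a replicate block and leaving out each array. Normexp used the median spot signal, where the plan had named the mean.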

Additional observations from a re-analysis of the deposited data

Results flagged for a closer look

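The changes over 72 h of 64 genes were compared between W20 and EGFP cells. Of these, 26 differed by at least 1 on the log2 scale and passed the threshold of the interaction term (limma, Benjamini-Hochberg adjusted). The 64 included genes named because their difference was among the largest in either direction, so those had to be counted. Others were picked by their EGFP change, which favours a difference. The 26 therefore give no result about these genes as a set. Over all 13615 genes tested, such a difference was called for 288 genes (W20 change higher) and 247 (lower). The values that follow are the W20 change minus the EGFP change. With 2 arrays a group, the groups were too small for a test of single arrays that stand apart.

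The W20 change was higher than the EGFP change for Gfap (4.17), Cox6a2 (3.67), Car6 (3.02), Kank4 (2.99), Fhl1 (2.84), Pcdh10 (2.69), Lama4 (2.68), Egr1 (2.27), Fap (2.2), Spry4 (1.89), Lix1 (1.76), Trib3 (1.73), Wnt10a (1.53), Ceacam1 (1.3), Aldh1a7 (1.21), Tmem35a (1.2) and Aldh1l2 (1.18). It was lower for Prl2c5 (-3.05), Ankrd1 (-2.67), Cldn6 (-2.46), Msln (-2.29), Spns3 (-2.08), Rbm47 (-1.97), Ramp1 (-1.66), Mmp3 (-1.49) and Esrrb (-1.08). Gfap, the astrocyte filament, changed by -2.67 in EGFP cells, where it went from near to below background, and by 1.5 in W20 cells. Differences of genes below background at a stage, which are Gfap, Car6, Kank4, Fap and Rbm47 in EGFP cells, are fitted values and no measured folds. Esrrb was above background on all 4 EGFP arrays but on only 6 of all 8 arrays. Its difference thus also rests in part on dim W20 signals.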

How the results depend on the processing

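Every setting kept the count of genes that rose or fell within 1.5 times its main value: risers ranged from 4157 (spike-in scaling) to 4914 (median scaling) and fallers from 3681 (spike-in scaling) to 4810 (quantile normalization). Leaving out 1 array gave 4268 to 4908 risers and 4089 to 4655 fallers, and the share of calls that were rises ran from 47.6% (normexp) to 56.1% (median scaling). Genes changed at least 2-fold were 472 higher and 450 lower with normexp. Among the 12157 genes well above background on all 8 arrays, 564 were higher and 615 lower. That setting leaves out genes that were dim on some array. The change differed between W20 and EGFP cells for 1924 genes with spike-in scaling; the cause was not tested. With the replicate number as a block, 4904 rose and 4632 fell. The deviations of same-numbered arrays correlated at 0.149 between the EGFP stages, 0.013 between the W20 stages, -0.091 between the NPC groups and 0.116 between the 72 h groups, which does not settle whether the numbers pair the arrays. Single genes turned direction in 5 cases: with the mean of a gene's probes Bub1 read 0.08, Pdlim7 0.0, Smarcc1 0.16 and Thy1 -0.13, whose probes disagree, and with normexp Gpam read -0.1; the cause was not tested for Gpam. Of the 315 named genes, 30 calls were lost with spike-in scaling, 21 with normexp, 19 with median scaling, 7 with quantile normalization and 21 to 26 on leaving out an EGFP array. Normexp, whose offset of 50 lifts all dim signals, moved 80 of their changes by over 1.5 times, such as Ahsg (6.61), Sox2ot (4.75), Insm1 (1.92) and Hes5 (0.49). It also turned the medians of the fatty acid oxidation (-0.03) and axon guidance (-0.06) lists. Genes near background are limited by their signal, and 2 arrays a stage limit the precision of all.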

Other observations

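Axon guidance genes, which steer growing nerve fibres, went both ways: of 37 tested, 14 rose, 14 fell and 9 did not pass, with a median change of 0.06. The receptor Epha5 rose from -3.28 and -3.11 to -1.69 and -1.66 (1.53 ± 0.135 SE, normexp 1.0), with another probe at -0.24, and the secreted guidance protein Ntn4 appeared from below background, at least 1.93-fold higher. The semaphorin Sema4a fell from -0.74 and -0.7 to -2.23 and -2.31 (-1.56 ± 0.06 SE).

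Of 33 autophagy and lysosome genes tested, 12 rose, 12 fell and 9 did not pass (median 0.07). Gpnmb, a glycoprotein of lysosomes and melanosomes, fell from -0.7 and -0.61 to -2.81 and -2.84 (-2.17 ± 0.051 SE). The cathepsin Ctsz (0.62 ± 0.053) and the galactosidase Gla (0.62 ± 0.036) rose.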
